A study of Homo sapiens and Mus musculus with 20 samples.

Results

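Growth factors that fibroblasts secrete were followed in IMR90 cells, an established line of human fetal lung fibroblasts. They are FGF2, FGF5 and FGF7, HGF, the EGF-family ligands EREG, HBEGF and NRG1, the PDGF chains PDGFA and PDGFC, and INHBA. These 10 genes were taken by symbol, with no cut on their values, out of 17554 genes listed in any of the 12 IMR90 libraries. The choice was made with earlier results of these data known. All 10 were listed in the A485 and MS-275 comparisons, and 9 were listed for pyruvate, where EREG was not listed and has no value. Every listed member passed the filter on low values, a mean of at least 10 normalised reads over the 4 libraries of its comparison.

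Bulk RNA-seq was compared between cells given A485, an inhibitor of the acetyltransferase p300, and Control2. The class I histone deacetylase inhibitor MS-275 was compared with Control3, and pyruvate with Control6. Each of these 6 groups held 2 libraries of IMR90 cells with the genotype label WT, the control groups carried the treatment label None, and neither dose nor time stands in the labels. The study aimed to learn how the enzymes and metabolites of histone lactylation bear on cellular senescence, and it describes the cells given pyruvate as senescent. The labels do not say what a replicate number marks or whether libraries came from separate cultures, so all p-values measure only the spread between these libraries. All groups come from 1 cell line.

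Fibroblasts form the supporting tissue of the lung and signal to the epithelium, the vessels and each other with secreted ligands. FGF, HGF, EGF-family and PDGF ligands bind receptor tyrosine kinases that drive the RAS-ERK cascade, which in turn switches on its own inhibitors such as the Sprouty and DUSP proteins. INHBA encodes the subunit of activin A, which belongs to the TGF-beta superfamily and signals through serine/threonine kinase receptors to SMAD proteins. Several of these ligands are held on heparan sulfate or made as membrane-bound precursors, so that proteases and binding proteins decide how much ligand is free. Growth factors of these families are also part of the secretory programme of senescent fibroblasts.

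All 8 fibroblast markers (COL1A1, COL1A2, COL3A1, VIM, THY1, PDGFRB, LUM and DCN) were listed in every comparison. PECAM1, CDH5, PTPRC, CD68, CD3E, CDH1 and MYH11, which define endothelial, immune, epithelial and smooth muscle cells, were not listed, but other markers of these cells were. In the A485 comparison 3 of 6 endothelial, 5 of 6 epithelial, 2 of 6 immune and 4 of 5 smooth muscle markers were listed, in the MS-275 comparison 4, 5, 3 and 4, and in the pyruvate comparison 2, 3, 0 and 3. Libraries held between 24179065 and 46971227 reads over the listed genes, with 2.77% to 6.90% of them from mitochondrial genes. The deposited values are reads scaled by 1 size factor in each library, called normalised reads here. Replicates differed most in Control3 and MS-275, with a chi-square per gene of 402 and 458 between the 2 libraries of a group, against 4.54 to 111 in the other groups, so no library was a duplicate of another. Values were normalised separately in each comparison, so levels are not compared across the 3 experiments.

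The promoters of the 3 ligand genes with the largest falls after A485, INHBA, FGF7 and HGF, and of HBEGF, the 1 member that rose, are shown to set their sequences side by side. Each is the 250 bases before the gene's start in RefSeq (GRCh38.p14), written 5′ to 3′ on the gene's strand, and 8 of the 10 genes were matched by symbol, with 12 windows in all, 1 for each of the genes shown. Capitals mark matches, on either strand, to the TATA box TATAAA, the GC box GGGCGG and the CCAAT box CCAAT. INHBA lies at chr7:41703091-41703340 on the minus strand, FGF7 at chr15:49422992-49423241 on the plus strand, HGF at chr7:81770048-81770297 on the minus strand and HBEGF at chr5:140346604-140346853 on the minus strand. The INHBA and HGF windows lie inside the GENCODE spans given for these genes below, so the RefSeq starts used here are not the outer ends of those spans.
INHBA: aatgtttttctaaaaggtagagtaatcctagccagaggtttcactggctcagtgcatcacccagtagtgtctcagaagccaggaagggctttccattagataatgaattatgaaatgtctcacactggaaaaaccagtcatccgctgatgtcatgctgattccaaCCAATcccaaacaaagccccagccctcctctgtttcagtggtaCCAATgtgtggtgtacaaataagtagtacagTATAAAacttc
FGF7: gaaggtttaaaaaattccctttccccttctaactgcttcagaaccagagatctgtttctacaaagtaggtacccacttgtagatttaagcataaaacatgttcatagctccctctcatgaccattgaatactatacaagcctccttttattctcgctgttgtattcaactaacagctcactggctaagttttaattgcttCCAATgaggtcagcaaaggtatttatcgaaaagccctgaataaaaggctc
HGF: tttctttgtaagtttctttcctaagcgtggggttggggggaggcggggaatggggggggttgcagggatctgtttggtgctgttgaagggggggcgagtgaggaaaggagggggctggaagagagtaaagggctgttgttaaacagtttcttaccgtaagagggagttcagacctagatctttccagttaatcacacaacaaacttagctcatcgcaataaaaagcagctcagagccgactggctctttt
HBEGF: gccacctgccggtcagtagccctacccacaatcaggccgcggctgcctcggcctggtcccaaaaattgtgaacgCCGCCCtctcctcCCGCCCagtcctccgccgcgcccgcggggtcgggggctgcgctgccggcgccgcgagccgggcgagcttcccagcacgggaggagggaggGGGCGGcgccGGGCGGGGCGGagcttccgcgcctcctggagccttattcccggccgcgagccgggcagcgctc

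The HBEGF window was 76.4% G and C, against 42.8% for INHBA, 38.4% for FGF7 and 50% for HGF. A TATAAA match was found in 3 of the 12 windows, those of INHBA, EREG and FGF5, and in 10.716% of all 35116 promoter windows of this length. A GC box stood in 7 of the 12 windows, which belong to HBEGF, FGF2, FGF5 and PDGFA, against 42.639% of all windows. A CCAAT match stood in 4 windows, of INHBA, FGF7, EREG and PDGFA, against 32.008% of all windows. None of the 12 windows held TGANTCA (AP-1), TGACGTCA (the cAMP response element) or CACGTG (the E-box), which occur in 6.573%, 1.646% and 6.345% of all windows. The motifs were chosen with the expression results known, and a match is a description of these letters only. The INHBA match to TATAAA began 11 bases before the RefSeq start and its CCAAT matches 85 and 42 bases before it. HBEGF held 5 GC box matches, of which the last 2 share a base.

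Levels were set side by side as normalised reads per kilobase of exon. In Control2 FGF5 stood highest at 1704, with its libraries at 1323 and 2086, and INHBA followed at 1211. FGF2 came next at 821, PDGFC at 639, FGF7 at 501, HGF at 485.5 and HBEGF at 350, and each of these 5 overlapped its neighbour within this run. PDGFA at 64.1 and NRG1 at 60.2 overlapped each other, far under HBEGF, and EREG was lowest at 11.8. In Control3 FGF5 at 1025, PDGFC at 818, INHBA at 673, FGF7 at 489, HGF at 466, FGF2 at 352 and HBEGF at 184 formed a run of overlapping neighbours, with PDGFA at 47.0, NRG1 at 36.0 and EREG at 6.68 below them. In Control6 the order began with HBEGF at 254 and FGF5 at 213, which did not overlap, and HGF at 95.0, PDGFC at 90.2 and INHBA at 90.2 overlapped their neighbours. FGF2 followed at 33.2, then PDGFA at 26.4 and NRG1 at 25.8, which overlapped, and FGF7 was lowest at 23.8. Thus PDGFA, NRG1 and EREG were at the bottom of both orders in which EREG was listed, and FGF7 stood last only in Control6.

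After A485, 5 of the 10 growth factors fell and 1 rose. INHBA, FGF7 and HGF fell 27.0-fold or more, NRG1 fell 7.71-fold, FGF5 fell 4.11-fold, and HBEGF rose 3-fold. FGF2, PDGFA, PDGFC and EREG were not called. A gene was called when limma on log2(value + 1) gave an adjusted p under 0.05 over all genes tested with a log2 fold change beyond 1 in either direction, and this held for 10.4% of the 16084 genes tested (3.31% higher and 7.06% lower). The median log2 fold change was -1.76 over the members and 0.0088 over all genes.

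**Figure D1:**
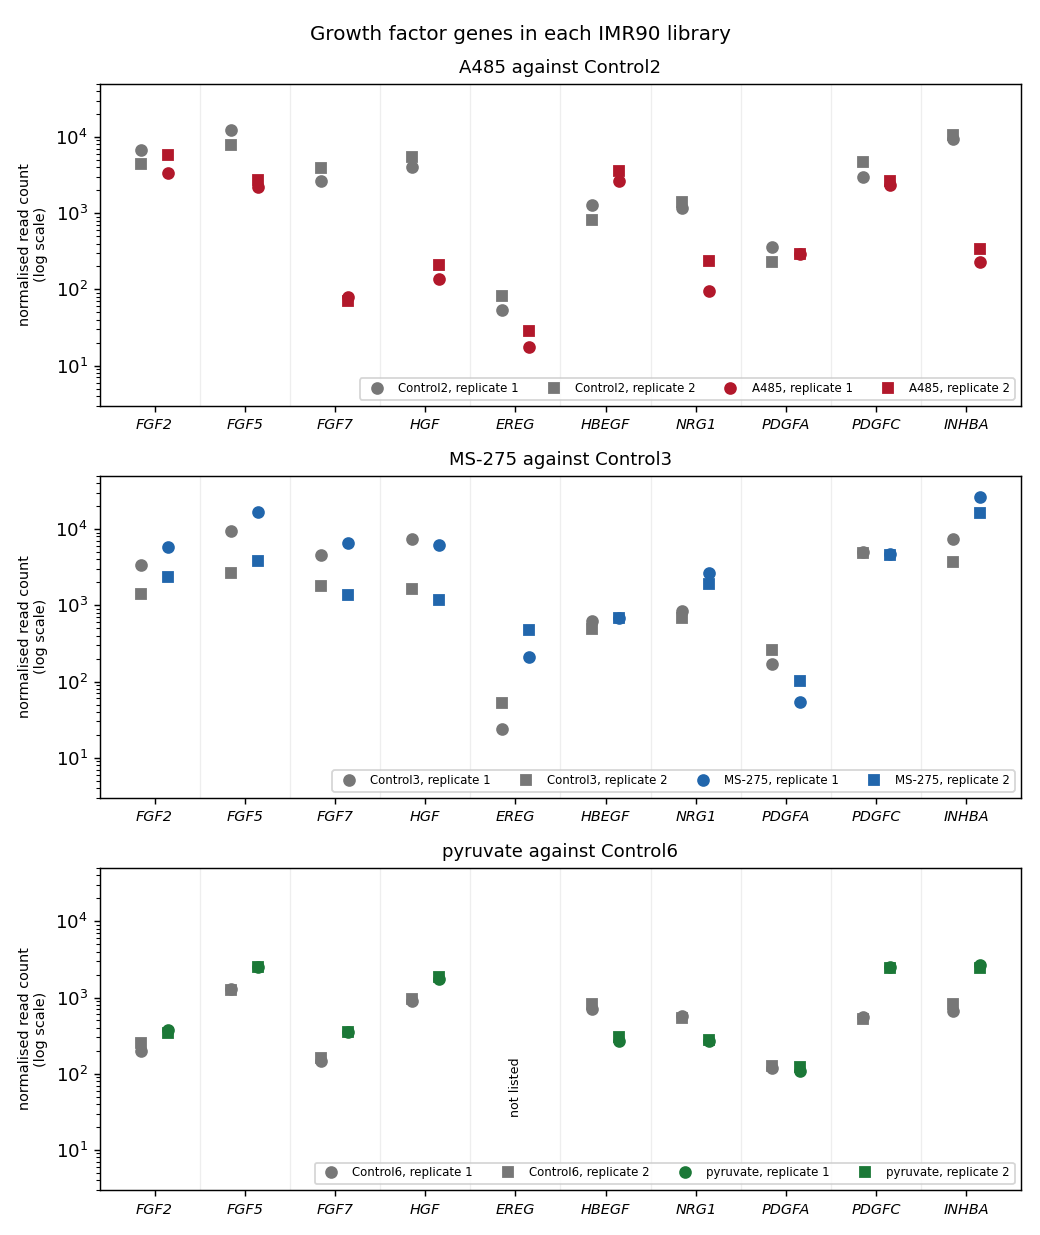
Normalised read counts (log scale) of the 10 genes in each IMR90 library, 1 panel per comparison, with control libraries in grey, treated libraries in colour, circles for replicate 1 and squares for replicate 2. In the A485 panel both treated libraries of INHBA (228 and 338), FGF7 (78.4 and 70.4) and HGF (138 and 212) lie far below their controls, and both of HBEGF lie above.

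INHBA (hg38 chr7:41667168-41705834, minus strand) had 9352 and 10707 normalised reads in the Control2 libraries and 228 and 338 in the A485 libraries. The highest treated library thus lay far below the lowest control. The mean was 35.4-fold lower, from 10030 ± 958 to 283 ± 77.2 (SD, n = 2 in each group), with a log2 fold change of -5.17 (SE 0.24, limma adjusted p = 0.000812). Exons of INHBA share 248 bases with the antisense gene INHBA-AS1, and the strand setting of the counting is not stated. INHBA-AS1 itself had 35.3 and 40.4 normalised reads in the controls and 2.53 and 3.56 after A485, few beside those of INHBA.

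Among the FGF ligands, FGF7, the keratinocyte growth factor that fibroblasts send to epithelium, fell most. FGF7 (hg38 chr15:49423237-49488775, plus strand) had 2626 and 3908 normalised reads in the controls and 78.4 and 70.4 after A485. The groups were far apart, with 93 and 79 reads left in the treated libraries, and the log2 fold change was -5.41 (SE 0.28, limma adjusted p = 0.000989). FGF5 (hg38 chr4:80266639-80336680, plus strand), a ligand known as a brake on hair growth and the member with the highest control level, had 12428 and 7880 in the controls and 2185 and 2755 after A485. These groups did not overlap either, and the log2 fold change was -2.01 (SE 0.26, limma adjusted p = 0.0088). FGF2 (hg38 chr4:122826682-122898236, plus strand), a broad mitogen held in the matrix, had 6783 and 4378 in the controls and 3372 and 5873 after A485. The groups overlapped, and the log2 fold change of -0.29 (SE 0.33, limma adjusted p = 0.596) turned to 0.10 when libraries were scaled to equal totals. FGF2 shares 804 exon bases with NUDT6 on the other strand, which had under 103 normalised reads in each of these libraries.

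HGF (hg38 chr7:81699010-81770438, minus strand), the ligand of MET that mesenchymal cells make for epithelium, had 4003 and 5466 normalised reads in the controls and 138 and 212 after A485. Both treated libraries lay far below both controls. The mean was 27.0-fold lower, and the log2 fold change was -4.76 (SE 0.29, limma adjusted p = 0.0012).

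The EGF-family ligands did not move together. NRG1, a ligand of the ERBB3 and ERBB4 receptors, had 1185 and 1389 normalised reads in the controls and 96.1 and 238 after A485. Its groups did not overlap, although the treated libraries stood 1.30 apart on the log2 scale, and the log2 fold change was -3.08 (SE 0.44, limma adjusted p = 0.0119). HBEGF (hg38 chr5:140332843-140346603, minus strand), an EGFR ligand cut from the cell surface, had 1288 and 802 in the controls and 2672 and 3591 after A485. Both treated libraries were higher than both controls, with a log2 fold change of 1.61 (SE 0.28, limma adjusted p = 0.0212). EREG (hg38 chr4:74365145-74388749, plus strand), another EGFR ligand, was the least abundant member, with 53.5 and 80.8 in the controls and 17.7 and 28.5 after A485. Its groups did not overlap, but the log2 fold change of -1.51 (SE 0.54, limma adjusted p = 0.122) did not pass the test.

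The PDGF chains, ligands of PDGFRA and PDGFRB, were not called. PDGFC (hg38 chr4:156760454-156971799, minus strand) had 3023 and 4639 normalised reads in the controls and 2308 and 2628 after A485. The groups did not overlap, and the log2 fold change was -0.60 (SE 0.24, limma adjusted p = 0.154). PDGFA (hg38 chr7:497258-520296, minus strand) had 362 and 226 in the controls and 287 and 289 after A485. Its treated libraries lay between the controls, and its log2 fold change of 0.01 (SE 0.33, limma adjusted p = 0.986) was -0.0099 with edgeR and -0.028 with DESeq2. In all, the groups of 8 of the 10 members did not overlap, and the same held for 61% of all genes.

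The falls of INHBA, FGF7 and HGF passed the test under each of the 17 other settings tried for them, with log2 fold changes from -5.45 to -4.77, from -5.87 to -5.02 and from -5.07 to -4.37. Without A485 replicate 1 only these 3 were called, since FGF5 (-1.84), HBEGF (1.82) and NRG1 (-2.43) missed the threshold, and without A485 replicate 2 FGF5 (-2.18) and HBEGF (1.39) missed it. The summed fibroblast markers also fell, from 1357450 and 1511440 as the lowest and highest control to 428267 and 502039 after A485, with 7 of 8 called lower, and the 4 listed smooth muscle markers fell from 27508 and 33688 to 1542 and 1588, 3 of them called lower. The 3 listed endothelial markers fell from between 508 and 1289 to between 127 and 189, with TEK and VWF called lower. The 5 listed epithelial markers went from between 2820 and 3172 to between 1319 and 1662, with KRT18 and KRT19 called lower and EPCAM higher, and the 2 listed immune markers from between 19.3 and 25.7 to between 32.0 and 33.8, with neither called. The part of these shifts in the ligand results was not tested, and in bulk RNA fewer cells of a type and less RNA per cell cannot be told apart.

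**Figure D2:**
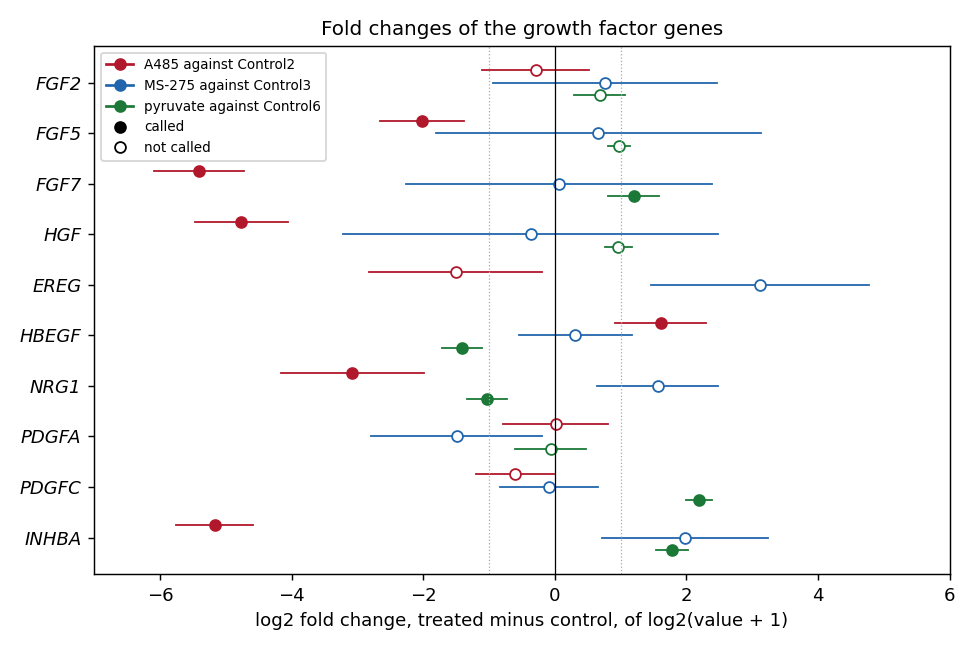
Log2 fold change (treated minus control, on the log2(value + 1) scale) of each gene with its 95% interval from limma, for A485 (red), MS-275 (blue) and pyruvate (green), where filled circles were called. INHBA, FGF7, HGF, NRG1 and FGF5 lie left of -1 for A485, no MS-275 point is filled, and intervals are narrowest for pyruvate, whose positive values for FGF2, FGF5 and HGF turned negative once a trend on length and GC content was removed.

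MS-275 gave a different picture, in which EREG, INHBA and NRG1 were higher in both treated libraries and PDGFA was lower. No gene passed the main test, which leaves replicate number out. limma called 0 of the 15883 genes tested (0%), no member included, and other count tests were not run on this comparison. At an unadjusted p under 0.05 there were 1730 genes, 10.9% of those tested, and 4 of the 10 members. Each treated library is set beside the control of its own replicate number below, although no label says that the numbers pair libraries. With the number as a replicate block, limma called 3 members higher and 1 lower, beside 13.7% of all genes (1230 higher, 953 lower). At an unadjusted p under 0.05 that fit had 7 members and 7452 of the 15883 genes. Within both numbers 4 members moved the same way by more than 1 on the log2 scale, 3 up and 1 down, and the same held for 11.7% of all genes (6.81% up and 4.85% down). The groups of 6 members did not overlap, against 38.9% of all genes, and the median log2 fold change was 0.49 over the members and -0.0084 over all genes. Summed fibroblast markers overlapped, from 769700 to 1255590 in the controls and from 632088 to 1119840 after MS-275, and no marker of any cell type was called. Endothelial markers summed to between 792 and 1405 and then between 605 and 712, and smooth muscle markers to between 31183 and 31438 and then between 27132 and 27930.

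INHBA had 7479 and 3676 normalised reads in the Control3 libraries and 26114 and 16331 in the MS-275 libraries. Both treated libraries lay above both controls, and the difference within replicate number 1 was 1.80 and within number 2 was 2.15 on the log2 scale. The log2 fold change was 1.98 (SE 0.49, limma adjusted p = 0.286). INHBA was called when Control3 replicate 1 was left out, at 2.49 (adjusted p = 0.02, limma). INHBA-AS1 stood at 10.9 and 14.1 in the controls and at 59.1 and 61.8 after MS-275.

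Of the EGF-family ligands, EREG had 23.8 and 52.6 normalised reads in the controls and 210 and 473 after MS-275. The difference was 3.09 within number 1 and 3.15 within number 2, and the groups did not overlap. Its log2 fold change of 3.12 (SE 0.64, limma adjusted p = 0.243) was the largest of any member here, and EREG was called at 3.68 without Control3 replicate 2. NRG1 had 854 and 683 in the controls and 2678 and 1901 after MS-275, with differences of 1.65 and 1.48 within the numbers. Its groups did not overlap, and the log2 fold change was 1.56 (SE 0.35, limma adjusted p = 0.269). HBEGF had 616 and 482 in the controls and 678 and 677 after MS-275, a log2 fold change of 0.31 (limma adjusted p = 0.866). The treated libraries lay just above the controls.

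PDGFA moved the other way, with 171 and 260 normalised reads in the controls and 54.2 and 102 after MS-275. Both treated libraries were lower than both controls, with log2 differences of -1.64 within number 1 and -1.345 within number 2. The log2 fold change was -1.49 (SE 0.50, limma adjusted p = 0.389). PDGFC was almost level, with 4940 and 4878 in the controls and 4671 and 4583 after MS-275, a log2 fold change of -0.09 with a 95% interval from -0.83 to 0.66.

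The FGFs and HGF were set apart by replicate number more than by treatment. FGF5 had 9579 and 2641 normalised reads in the controls and 16541 and 3827 after MS-275, so the libraries numbered 1 stood above those numbered 2 in both groups. Within both numbers FGF5 was higher after MS-275. FGF2 had 3391 and 1391 in the controls and 5782 and 2347 after MS-275, with differences of 0.77 and 0.75 within the numbers. FGF7 had 4591 and 1787 in the controls and 6512 and 1372 after MS-275, and its difference was 0.50 within number 1 and -0.38 within number 2. HGF had 7461 and 1619 in the controls and 6246 and 1160 after MS-275, with differences of -0.26 and -0.48 within the numbers. For each of these 4 genes the groups overlapped, and the library numbered 1 was the higher in both groups. Their log2 fold changes were 0.66 for FGF5, 0.76 for FGF2, 0.06 for FGF7 and -0.37 for HGF. Those of FGF5, FGF7 and HGF changed sign when 1 library was left out, with values from -0.39 to 1.72, from -1.06 to 1.18 and from -1.58 to 0.85. Such a fit leaves the replicate numbers unequal between the groups. FGF7 also changed sign with equal library totals, at -0.081.

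**Figure D3:**
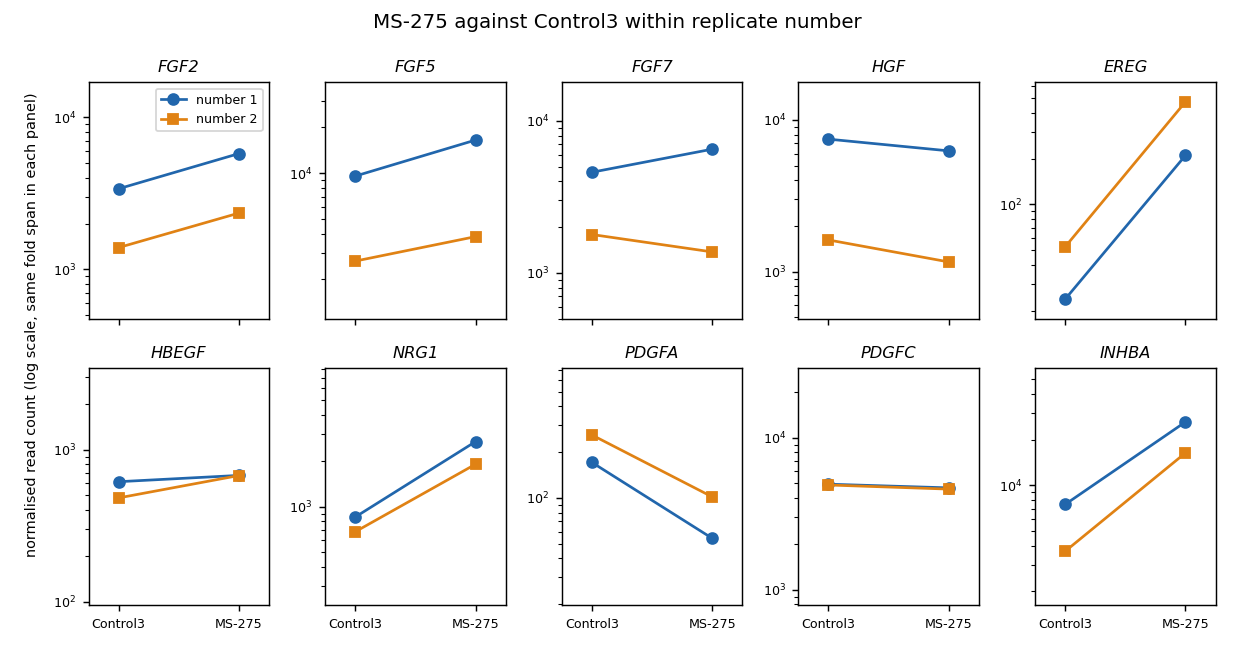
Normalised read counts (log scale, each panel spanning the same fold range) of the 10 genes in Control3 and MS-275 libraries, with a line joining libraries that share replicate number 1 (blue) or 2 (orange). The lines of EREG, INHBA and NRG1 rise and those of PDGFA fall in both numbers, whereas in FGF2, FGF5, FGF7 and HGF the blue line lies above the orange line throughout.

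After pyruvate, PDGFC, INHBA and FGF7 were called higher and HBEGF and NRG1 lower, while FGF2, FGF5 and HGF were higher by less than the fold threshold and PDGFA was not called. Replicates were close in this experiment, and 54.1% of the 12013 genes tested were called (31% higher and 23.1% lower), so 5 of 9 members called is near the background. All members but PDGFA had an adjusted p under 0.05, as did 80.9% of all genes, and groups did not overlap for 8 of 9 members and for 90.5% of genes. The median log2 fold change was 0.97 over the members and -0.0069 over all genes.

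These fold changes ran with the base composition of the transcripts. Across 11823 genes with a matched transcript, Spearman's rho between the log2 fold change and the GC content was -0.718, against -0.112 for A485 and -0.017 for MS-275, where the genes share the same 4 libraries in each case. In the decile of genes with the lowest GC content, which holds FGF2, FGF5, FGF7 and HGF, the median log2 fold change was 1.72, above that of each of these 4 members. It was 1.91 in the second decile, with INHBA, 1.51 in the third, with NRG1, and 0.88 in the fourth, with PDGFC. It was -0.37 in the sixth, with HBEGF, and -0.83 in the eighth, with PDGFA. Each member's value below is therefore followed by its value after a trend on length and GC content of the transcripts was removed from each library. In this setting the median of all genes was 0.20 and 4 of 9 members were called. The marker values that follow, and some genes of the lists further below, are given without this removal. The fibroblast markers summed to 880751 and 896665 in the controls and 775087 and 778292 after pyruvate, with DCN and LUM called higher and THY1 lower. The 3 listed smooth muscle markers summed to 57138 and 57343 and then to 23892 and 24045, all called lower. The 2 listed endothelial markers rose from 358 and 481 to 1448 and 1469 in sum, with TEK called higher and VWF lower. The part of these shifts and of base composition in the ligand values was not otherwise tested.

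**Figure D4:**
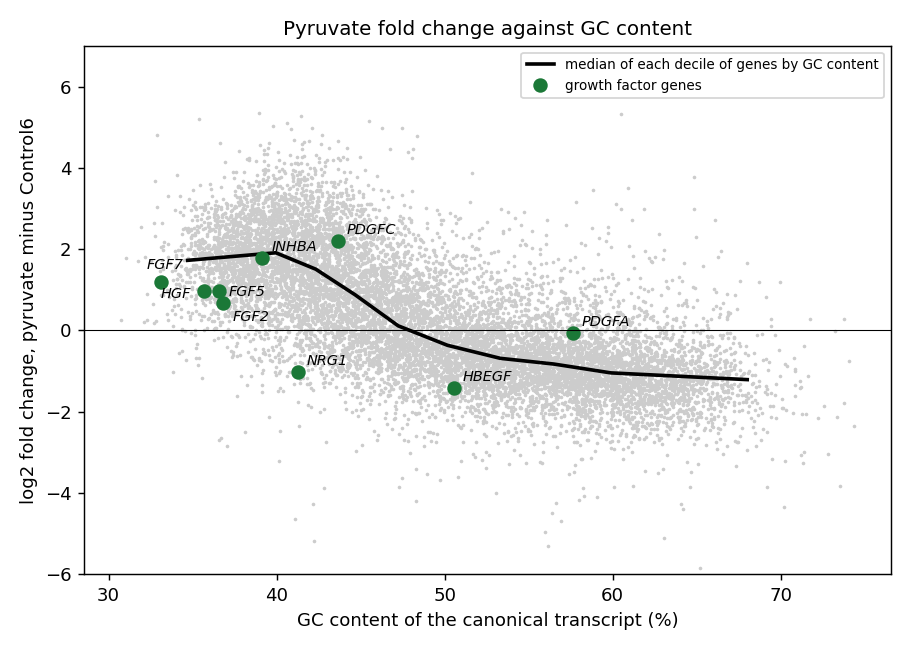
Log2 fold change after pyruvate against the GC content of each gene's canonical transcript for 11823 genes (grey points), with the median of each decile of genes by GC content (black line) and the 9 listed growth factor genes (green). FGF2, FGF5, FGF7 and HGF lie below the line at its left end, NRG1 lies far below it, and PDGFC and PDGFA lie above it.

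PDGFC had 555 and 527 normalised reads in the Control6 libraries and 2486 and 2466 in the pyruvate libraries. The treated libraries were 4.58-fold higher with no overlap, and the log2 fold change was 2.19 (SE 0.09, limma adjusted p = 1.99e-09), the largest rise of a member. With the trend removed it was 1.14 and still called. PDGFA had 118 and 125 in the controls and 109 and 124 after pyruvate. Its groups overlapped, and its log2 fold change of -0.06 (limma adjusted p = 0.825) became 1.11, and called higher, with the trend removed, and 0.25 with equal library totals.

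NRG1 had 566 and 538 normalised reads in the controls and 266 and 275.3 after pyruvate. Both treated libraries were lower, and the log2 fold change was -1.02 (limma adjusted p = 3.14e-05). With the trend removed NRG1 fell further, to -2.71, and only 2.71% of the genes in its decile by GC content had a lower fold change. The call was lost with equal library totals, at -0.71, and without Control6 replicate 1, at -0.99, since NRG1 lies close to the fold threshold. HBEGF had 710 and 812 in the controls and 268 and 301 after pyruvate. It was 2.67-fold lower without overlap, with a log2 fold change of -1.41 (limma adjusted p = 1.95e-06), and -0.68 with the trend removed, short of the fold threshold.

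INHBA had 666 and 828 normalised reads in the controls and 2668 and 2434 after pyruvate. It was 3.42-fold higher with no overlap, and its log2 fold change was 1.78 (limma adjusted p = 4.79e-08). With the trend removed the value was 0.0014, so INHBA stood where genes of its length and GC content stood. FGF7 had 147 and 163 in the controls and 357 and 357 after pyruvate, a log2 fold change of 1.20 (limma adjusted p = 5.87e-05) that was 0.08 with the trend removed and 0.57 after quantile normalisation.

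The other FGFs and HGF turned direction with the trend. FGF5 had 1276 and 1258 normalised reads in the controls and 2492 and 2501 after pyruvate, with a log2 fold change of 0.98, and of -0.65 with the trend removed. HGF had 895 and 959 in the controls and 1747 and 1878 after pyruvate, with 0.97 and, with the trend removed, -0.58. FGF2 had 200 and 251 in the controls and 376 and 345 after pyruvate, with 0.68 and, with the trend removed, -1.02, then called lower. The groups of these 3 genes did not overlap in the normalised reads. FGF5 and HGF passed the fold threshold with equal library totals, at 1.29 and 1.28, where the median of all genes was 0.30.

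The receptors of these ligands were read from a list of 18 genes, of which FGFR2 and ERBB4 were not tested in any comparison. After A485, 16 were tested, 0 were called higher and 2 lower, with a median log2 fold change of -0.10, so the count is near the 10.4% of all genes. With equal library totals, where the median of all genes was 0.40, the receptors' median was 0.30 and ACVR2B and ERBB3 were called higher beside 2 lower. The receptors called lower were those of PDGF. PDGFRA had 8856 and 13882 normalised reads in the controls and 1618 and 1484 after A485, a log2 fold change of -2.84 (limma adjusted p = 0.00276). PDGFRB had 14289 and 17152 in the controls and 1756 and 1980 after A485, a log2 fold change of -3.07 (limma adjusted p = 0.00117). Both fell without overlap, and 2 receptors were called lower with either A485 library left out. The receptor of HGF, MET, had a log2 fold change of -1.02, the EGF receptor EGFR -0.80, ERBB2 0.52 and ERBB3 2.53, which with 8.56 and 20.8 normalised reads in the controls and 57.3 and 118 after A485 was scarce. None of these 4 passed the test. The FGF receptors stood at -0.80 for FGFR1, 0.62 for FGFR3, -0.59 for FGFR4 and -0.21 for the decoy FGFRL1, and the activin receptors and their relatives at -0.54 for ACVR1, 0.02 for ACVR1B, 1.88 for ACVR1C, 0.66 for ACVR2A, 1.01 for ACVR2B and 0.16 for TGFBR3, all not called.

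After MS-275 none of the 15 receptors tested was called, with a median of 0.15. The largest difference was that of FGFR4, which had 165 and 102 normalised reads in the controls and 2022 and 1672 after MS-275, a log2 fold change of 3.81 (limma adjusted p = 0.162). ERBB3, the receptor of NRG1, had 15.8 and 29.3 in the controls and 105 and 144 after MS-275, a log2 fold change of 2.46 (limma adjusted p = 0.246). Both stood apart without overlap, and the other 13 ranged from -0.36 for ERBB2 to 1.07 for FGFR3. EGFR, with 13673 and 4157 in the controls and 12620 and 3799 after MS-275, differed by replicate number in both groups, as did FGF5 and HGF.

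After pyruvate 13 receptors were tested, 5 were called higher and 4 lower, against 31% and 23.1% of all genes. MET rose from 145 and 181 normalised reads to 1090 and 1320, a log2 fold change of 2.88, and EGFR from 2309 and 2030 to 8140 and 8301, a log2 fold change of 1.92. Both were still called with the length and GC trend removed, at 1.68 and 1.67, as was ACVR2B at 1.58 after 2.31. PDGFRA, at 1.58, and ACVR2A, at 1.29, were not, at 0.26 and -0.35. The 4 that fell, FGFR1 at -1.29, ERBB2 at -1.48, FGFRL1 at -1.46 and FGFR4 at -1.60, were not called with the trend removed either, at -0.59, -0.53, -0.18 and -0.29. PDGFRB at -0.34, ACVR1 at 0.98, ACVR1B at -0.86 and TGFBR3 at 0.27 were not called, although with the trend removed ACVR1 was called higher, at 1.42, and TGFBR3 lower, at -1.02.

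**Figure D5:**
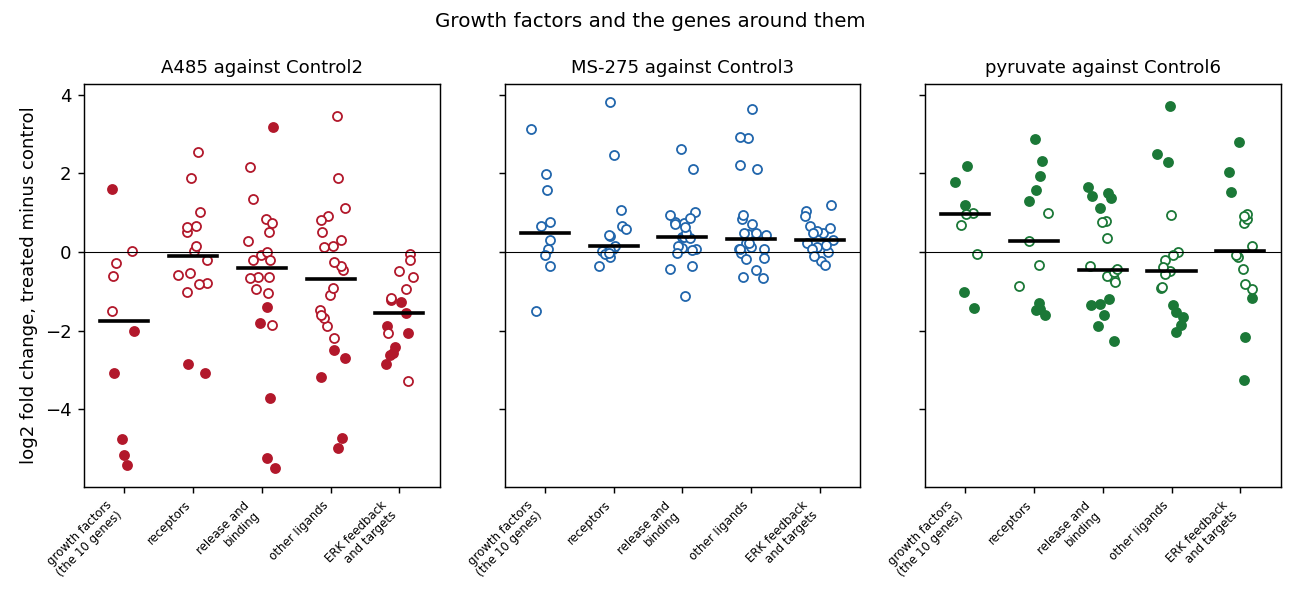
Log2 fold change of the 10 growth factors and of genes for receptors, release and binding, other ligands and ERK feedback in each comparison, where each circle is a gene, filled circles were called and black bars are medians. In the A485 panel every ERK feedback gene lies below 0 (IL17RD and SPRED1 lay above it with equal library totals), and no circle is filled in the MS-275 panel, while the pyruvate values include the shift with GC content described in the text.

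Genes that release or bind the ligands were read from a list of 27. After A485, 22 were tested, and 1 was called higher and 5 lower, against 3.31% and 7.06% of all genes. The median log2 fold change was -0.42. The protease inhibitor SPINT1 was the gene called higher, at 3.17, and SDC1 and SDC3 were called lower beside the 3 genes that follow. FST, which encodes follistatin, the binding protein that neutralises activin, had 29942 and 11224 normalised reads in the controls and 399 and 405 after A485, a log2 fold change of -5.51 (SE 0.44, limma adjusted p = 0.00239). FST thus fell along with its target INHBA and without overlap. PLAU, the urokinase protease, fell from 19166 and 20903 to 459 and 612, a log2 fold change of -5.24, and ADAM12, a sheddase, from 781 and 717 to 28.7 and 108, a log2 fold change of -3.72. With equal library totals the split was 4 higher (SPINT1, SPINT2, FURIN and SDC2) and 5 lower, with a median of -0.028. Without A485 replicate 1 there were 2 calls in this list, both lower, and without A485 replicate 2 there were 3, also lower. After MS-275, where 21 were tested and none was called, FST had 15699 and 6494 in the controls and 58103 and 32944 after treatment, with a log2 fold change of 2.12 (limma adjusted p = 0.309), beside the 1.98 of INHBA. The syndecan SDC1 stood at -1.12. After pyruvate 5 were called higher of 20 (ADAM9, ADAM10, ADAM17, SDC2 and SPINT1) and 6 lower (PLAT, GPC1, CD9, SDC3, FURIN and HSPG2), near the 54.1% called of all genes. The plasminogen activator PLAT at -2.27, the glypican GPC1 at -1.88 and the sheddase ADAM9 at 1.66 became -1.47, -0.58 and 0.01 with the trend removed, where 2 were called higher (ADAM19 and SPINT1) and 2 lower (PLAT and CD9). FST was at 0.35.

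Other ligands of the same families were read from a list of 36. After A485, 24 were tested, and 0 were called higher and 5 lower, against 3.31% and 7.06% of all genes, with a median of -0.69. FGF1, a matrix-bound FGF, fell from 480 and 718 normalised reads to 16.9 and 26.7, a log2 fold change of -4.73. INHBE, which encodes a further activin subunit, fell from 153 and 93.0 to 4.21 and 1.78, and GDF15, a stress-induced member of the TGF-beta superfamily, from 1203 and 2537 to 170 and 217, log2 fold changes of -4.98 and -3.18. The angiogenic ligands VEGFA at -2.50 and VEGFC at -2.69 made up the 5. With either A485 library left out 2 ligands of this list were called. Equal library totals gave 4 higher (BTC, GDF11, MST1 and TGFB3) and 5 lower, with a median of -0.32. After MS-275 none of 24 was called, with PGF at 2.93 and the EGFR ligand AREG at 2.90, where AREG had 12.9 and 77.8 in the controls and 98.8 and 613 after treatment. After pyruvate 3 of 17 were called higher and 5 lower, against 31% and 23.1% of all genes. Those lower were GDF11, MST1, TGFB3, BMP4 and VEGFB. Those higher were PDGFD at 3.71, INHBE at 2.49 and BMP2 at 2.28, each with at most 34.7 normalised reads in either control. With the trend removed these 3 were at 2.12, 3.53 and 2.95 and still called. The list then had 5 called higher and 3 lower, with a median of 0.098 after -0.49.

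Feedback inhibitors and targets of the ERK cascade were read from a list of 17. After A485 all 17 were tested, and 0 were called higher and 9 lower, against 3.31% and 7.06% of all genes. The median was -1.55, and all 17 had negative fold changes. This did not hold with equal library totals, where IL17RD was at 0.35 and SPRED1 at 0.18, nor with the length and GC trend removed, where IL17RD was at 0.18, none of them called. DUSP6, the ERK phosphatase, had 963 and 1898 normalised reads in the controls and 196 and 180 after A485, a log2 fold change of -2.84 (limma adjusted p = 0.00818). The ETS factor ETV4 fell from 480 and 488 to 96.9 and 63.2, a log2 fold change of -2.61, and PHLDA1 from 8865 and 13558 to 1639 and 2082, a log2 fold change of -2.57. DUSP5, ERRFI1, ETV1, ETV5, SPRY2 and SPRY4 were the others called. With either A485 library left out fewer genes were called, in this list as among all genes. The median of the list was then -1.39 without A485 replicate 1 and -1.71 without A485 replicate 2. With equal library totals 8 were called lower, where the median of all genes was 0.40. After MS-275 none of 17 was called, with a median of 0.31, the phosphatase DUSP4 at 1.19 and DUSP5 at 1.05. After pyruvate 3 were called higher of 16 (SPRED1, ETV1 and IL17RD) and 3 lower (DUSP5, SPRED3 and ETV5), against 31% and 23.1% of all genes. DUSP5 at -3.27, SPRED1 at 2.79 and SPRED3 at -2.16 were called the same way with the trend removed, at -2.13, 1.12 and -1.27, where 4 were called higher and 4 lower.

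The members were also set beside each other over the 12 libraries, as Pearson's r of log2(value + 1) after each comparison was centred on its mean. This is a description with no test, since the points share 3 experiments and the largest differences weigh most. These were not those of A485 for every member. PDGFC had its largest log2 fold change after pyruvate (2.19, against -0.60 for A485 and -0.09 for MS-275), where values ran with GC content. PDGFA had its largest after MS-275 (-1.49, against 0.01 for A485). FGF7 and HGF ran closest, at 0.98, followed by FGF7 and INHBA at 0.92 and FGF5 and HGF at 0.88, whereas HBEGF ran against PDGFC at -0.82, FGF7 at -0.78 and INHBA at -0.75. Among 9769 genes tested in all comparisons, those most like FGF7 were COL6A3, LAMA4 and MIR100HG, at 0.98 to 0.99, and those most like HGF were COL6A3, LOX and PRSS12. Those most like INHBA were IRS1, SHROOM3 and PEAR1, at 0.98 to 0.99. Those most like PDGFC were PIP4K2A, SLC39A6 and C2CD2, at 0.99, and those most like FGF5 were GLI2, ZMIZ1 and SCD, the first at 0.98. NRG1 was most like ARNT2, ACTN1 and EDN1, at 0.97, HBEGF most like SLC25A44, APLP2 and ACP2, FGF2 most like GCNT1 and CRIM1, and PDGFA most like STAT5B, TEDC2 and BCL2L12, at 0.95 to 0.98.

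INHBA and NRG1 stood in opposite directions in the A485 and MS-275 comparisons, with log2 fold changes of -5.17 and 1.98 and of -3.08 and 1.56. Their MS-275 values were not called in the main test. EREG also stood opposite, at -1.51 and 3.12, but was called in neither. HBEGF stood opposite in the A485 and pyruvate comparisons, with 1.61 and -1.41, and its pyruvate value was -0.68 with the trend removed. INHBA and FGF7 also stood opposite in the A485 and pyruvate comparisons, with -5.17 and 1.78 and with -5.41 and 1.20, of which the pyruvate values were 0.0014 and 0.08 with the trend removed. The differences between comparisons were not tested, since each was normalised by itself.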

How the data were processed

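Per the labels and the study's methods, the authors trimmed reads with Trim Galore (version 0.6.10), aligned them to hg38 with HISAT2 (version 2.2.1), counted reads per gene with featureCounts (version 2.0.6) and normalised with DESeq2 (version 1.34.0). The annotation and strand setting are not given in the sources used here. The deposited values are a signal, read counts divided by 1 size factor per library. In all 12 libraries 100% of values were whole multiples of 1 read within 0.1 read, and reads were recovered by division. Genes listed had at least 10 reads (20 for pyruvate) in at least 2 libraries.

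Libraries were grouped by title. Genes with a mean of at least 10 were tested on log2(value + 1), which understates changes of low genes, with limma (version 3.58.1, R version 4.3.3), eBayes with an intensity trend, no covariate, two-sided, and Benjamini-Hochberg adjustment over all genes tested. Exact permutation of 2 against 2 libraries cannot give small p-values and was not used. Fits were tested on simulated data. edgeR (version 4.0.16) and DESeq2 (version 1.42.0) were run on the recovered A485 reads. The other comparisons had no such test. In 5 of their 8 libraries the low values alone did not settle the value of 1 read, which lay too close to 1, or the smallest value was 2 reads. Over all values the whole-read check held in these libraries too, and their recovered reads were used for the library totals and the chi-square. The MS-275 and pyruvate calls were thus not checked with a count test. Positions, exon lengths and GC content came from GENCODE on hg38, matching 97.6% to 98.4% of symbols. Other steps used Python (version 3.11.15), pandas (version 2.3.3), numpy (version 2.4.6) and matplotlib (version 3.10.9).

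The members, gene lists and tests were chosen with earlier results of these data known. All members were named, and all receptors tested after A485 and pyruvate, but only some of those tested after MS-275. From each other list up to 3 called genes were named, those with the largest change whose groups did not overlap and whose higher group averaged 100 or more. Where none was called, 2 were named. Further genes named from these lists, to spell out a count, were chosen after their values were seen. The 3 genes most like each member were named, of which 1 is not reported here. The 8 mouse muscle libraries were not used.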

Additional observations from a re-analysis of the deposited data

How the results depend on the processing

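With A485, the members called numbered 3 without the intensity trend (all lower), where 840 genes were called (258 higher, 582 lower), and from 3 to 6 when 1 library was left out, where 229 to 1284 genes were called and the lone library is assumed to vary like the other group. Equal library totals called 2578 genes (1677 higher, 901 lower) against 1667 (532 higher, 1135 lower), with the median of all genes at 0.40, and quantile normalisation called 751 higher and 1011 lower, with that median at 0.12. FGF2 turned to 0.10 with equal library totals and ranged from -0.69 to 0.11 with 1 library left out. PDGFA was -0.0099 with edgeR and -0.028 with DESeq2, and -0.33 to 0.35 with 1 library left out. With MS-275, FGF7 was -0.081 with equal library totals (median of all genes -0.15). Leaving out 1 library gave 0 to 1 members and 33 to 444 genes, and ranges from -0.39 to 1.72 for FGF5, from -1.06 to 1.18 for FGF7 and from -1.58 to 0.85 for HGF.

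With pyruvate, 8 members were called with a fold change minimum of 0.58 or none (6 higher, 2 lower), and 4 to 6 with 1 library left out. Removing the length and GC trend left 3552 genes called (2422 higher, 1130 lower) of 11823, against 6503 (3726 higher, 2777 lower). It gave -1.02 for FGF2, -0.65 for FGF5, -0.58 for HGF and 1.11 for PDGFA. PDGFA was 0.25 with equal library totals (4402 higher, 1741 lower) and -0.15 to 0.029 with 1 library left out, and quantile normalisation moved the median of all genes to -0.17 (3143 higher, 3228 lower).

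The labels do not say that replicate numbers pair libraries, and with 2 numbers this could not be settled. Deviations of same-numbered control and treated libraries had a Pearson r across genes of 0.32 for A485, 0.73 for MS-275 and 0.002 for pyruvate. With the number as a replicate block, 4 MS-275 members were called (EREG, INHBA and NRG1 higher, PDGFA lower) and 2183 genes (1230 higher, 953 lower), and with the length and GC trend also removed 4 and 1952. Under the block MS-275 also called the receptors FGFR4 and ERBB3 higher (adjusted p = 4.39e-11 and 5.87e-05, limma), 3 release and binding genes higher (ADAM19, FST and SPINT2) and SDC1 lower, 5 other ligands higher (AREG, BMP2, GDF15, NRG2 and PGF), and DUSP4 and DUSP5 higher. In the A485 lists it called 2 receptors higher and 3 lower, 2 and 7 release and binding genes, 2 and 8 other ligands, and 0 and 11 ERK feedback genes. The block left 6 A485 members and 5 pyruvate members called, and with the trend removed as well pyruvate gave 4 members, 3606 genes, and again -1.02, -0.65, -0.58 and 1.11 for FGF2, FGF5, HGF and PDGFA. edgeR and DESeq2 were run for A485 alone. The causes were not tested. Depth was ample for all members but EREG, whose lowest library held 21 reads.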
